A study of Mus musculus with 3 samples.

Results

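Reads on the Lx repeats and the other non-L1Md LINE-1 repeats of rodents were followed across 3 RNA immunoprecipitation libraries from mouse hippocampus. The group was defined by name: every listed repeat name that starts with Lx, L1_Mm, L1_Mus, L1_Mur, L1_Rod or L1VL. These were 27 of the 18484 names in the count tables, and all 27 had reads in every library. By name they fall into 12 names from Lx to Lx4, 4 names of Lx5 and Lx6, 5 names from Lx7 to Lx10, L1_Mus3, L1VL1, and 4 names of L1_Mur and L1_Rod. No listed name started with L1_Mm. The age of a subfamily is not in the tables, so the label "older" comes from the names and was not checked against sequence divergence.

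LINE-1 (L1) elements are autonomous retrotransposons that copy themselves through an RNA intermediate with their own reverse transcriptase. Lx is a LINE-1 family that amplified early in the history of murine rodents, and most of its copies are truncated, mutated and no longer able to move. The L1Md subfamilies of the mouse hold the copies that can still be active, whereas L1M and HAL1 names are remnants that predate the rodents. Inverted or bidirectionally transcribed copies of such repeats can give double-stranded RNA, and ZBP1 is an innate immune sensor that binds double-stranded nucleic acid in the left-handed Z conformation.

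The mice were 9 months old and on a C57BL/6 background. One library came from an anti-ZBP1 pull-down in PS19 mice, 1 from a pull-down of Z-form nucleic acid (ZNA) in PS19 mice and 1 from a ZNA pull-down in wild-type (WT) mice. PS19 mice express a mutant human tau transgene, driven by the mouse prion protein promoter, and develop tau pathology. How many mice went into a library is not given in the sources used here, and no input, isotype-control or WT ZBP1 library was analysed here. With 1 library per group no value has a replicate error, no difference could be tested against the spread between animals, and every interval below is a 95% interval of counting error only.

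Total reads over all names were 1425383 for PS19 ZBP1, 2918985 for PS19 ZNA and 3234786 for WT ZNA. Of these, 74474, 308613 and 145372 reads lay outside the 2 ribosomal RNA (rRNA) names. Values are therefore given on both scales, as CPM (reads per 1000000 of the library total) and as RPM (reads per 1000000 outside rRNA). The tables hold repeat names and no protein-coding markers of hippocampus. BC1_Mm, the name of a neuronal noncoding RNA, had 33, 146 and 77 reads in this library order.

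The 27 names together held 9907 reads for PS19 ZBP1, 58925 for PS19 ZNA and 27540 for WT ZNA. As a share of the reads outside rRNA this was 13.3% in PS19 ZBP1 (Wilson interval 13.1 to 13.5%), 19.1% in PS19 ZNA (18.96 to 19.2%) and 18.9% in WT ZNA (18.7 to 19.1%). Both ZNA libraries thus gave the group nearly the same share of the non-ribosomal reads, with overlapping intervals, and the ZBP1 library gave it a smaller one. As a share of the library total, the group took 0.695%, 2.02% and 0.851% in the same order, so that on this scale the PS19 ZNA library stood far above the other two. The libraries come from hippocampal tissue in bulk, where fewer cells of a type and less RNA per cell cannot be told apart. Among all names starting with L1, Lx or HAL1, the group held 43.97%, 40.5% and 42.7% of the reads.

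The order of the names by read number was much alike in the 3 libraries. Lx8, Lx9 and Lx7 had the most reads and L1_Mus3 the fewest in each of them. Across the 27 names, Spearman's rho was 0.993 for PS19 ZNA with WT ZNA, 0.960 between the PS19 ZBP1 and PS19 ZNA libraries and 0.966 between PS19 ZBP1 and WT ZNA. The points share each library's depth and the genomic copy number of each name, and no p-value is attached. Read numbers are not per length: the genomic length covered by each name is not in the tables, so these ranks do not order the names by expression.

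**Figure D1:**
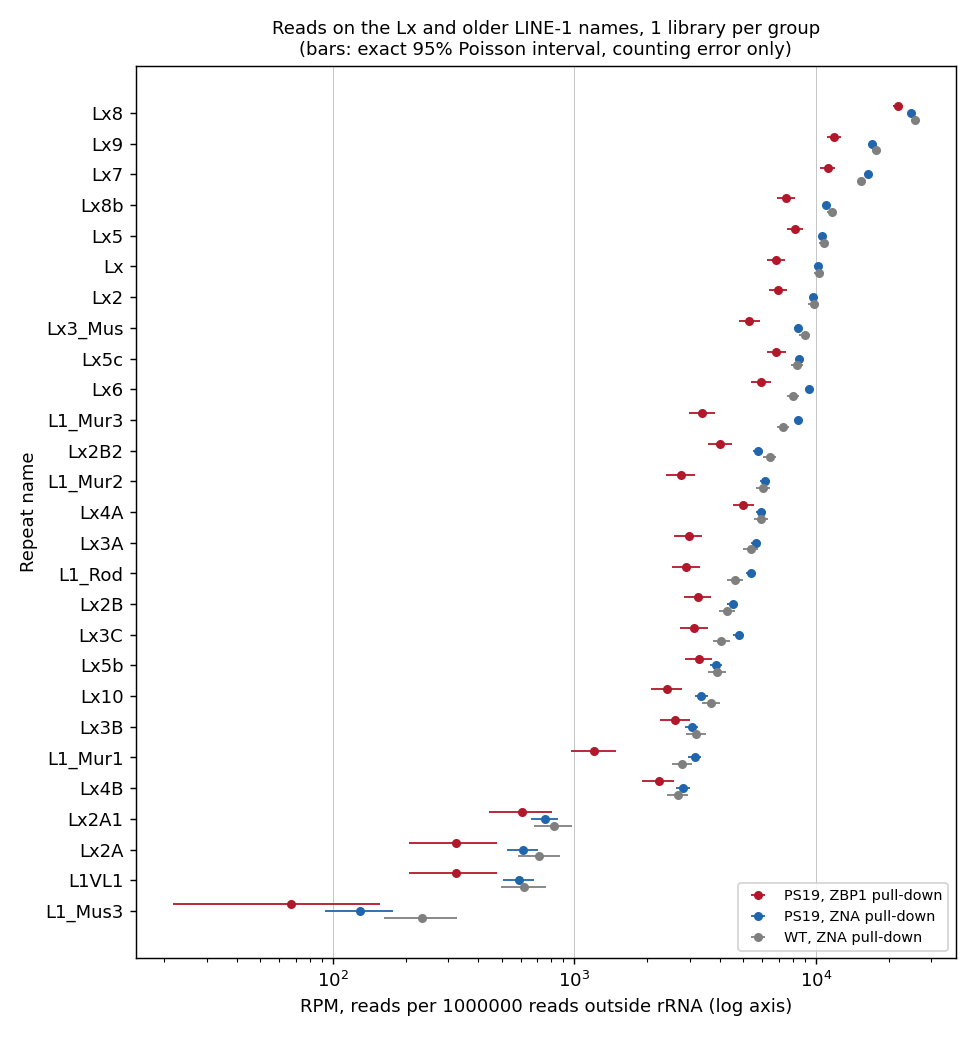
RPM, reads per 1000000 outside rRNA (log axis), for each of the 27 names in the libraries of PS19 ZBP1 (red), PS19 ZNA (blue) and WT ZNA (grey). Bars are exact Poisson intervals of counting error; Lx8 lies highest at 21914, 24727 and 25686, and the red point lies left of both others for every name.

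The first comparison set the ZNA pull-down of PS19 against that of WT. Per library total all 27 names were higher in PS19, with a median log2 ratio of 1.22, against 97.5% of all 713 names compared, so this count is near the background. Per reads outside rRNA 12 names were higher and 15 lower, with a median of -0.01, where 59.6% of all names compared were higher. Under TMM scaling 13 were higher and 14 lower, where 60.9% of all names were higher. The pooled log2 ratio was 1.25 (exact interval 1.23 to 1.27) per library total, a 2.37-fold higher value (2.34 to 2.41), and 0.01 (-0.01 to 0.03) per reads outside rRNA. Scaling to the reads outside rRNA moved the median over all names compared from 1.24 to 0.08, and the group followed that shift. Reads outside rRNA were 10.6% of the PS19 and 4.49% of the WT library, and the part of this rRNA difference in the group's higher CPM was not tested.

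Per library total, 25 of the 27 names were at least 2-fold higher in PS19, against 74.3% of all 713 names compared, and 0 were at least 2-fold lower, against 0.421%. The share of members is thus above a background in which most names also passed. Their median log2 ratio of 1.22 was, however, not above the 1.24 of all names compared. The standard deviation per library total was 0.21 over the members and 0.50 over all names compared. Per reads outside rRNA, 0 members were at least 2-fold higher, against 4.64% of 711 names, and 0 at least 2-fold lower, against 2.95%. The exact interval of the ratio on this scale lay wholly above 1 for 6 members, against 14.6% of all names compared, and wholly below 1 for 3, against 6.47%. The 6 are Lx7, L1_Mur1, L1_Mur3, Lx6, L1_Rod and Lx3C, and the 3 are Lx2B2, Lx3_Mus and L1_Mus3. The standard deviation of the log2 ratio over the members was 0.21 on this scale, against 0.10 from counting error, and over all names compared it was 0.58 against 0.38. The 0.21 includes the rarest member, L1_Mus3, which lay far lowest at -0.85. Within the name groups of more than 1 name the standard deviation was 0.08 to 0.13, against 0.05 to 0.09 from counting error. The members compared had a median of 2688 reads per name over the PS19 and WT ZNA libraries together, against 114 for all names compared.

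The next comparison held the genotype at PS19 and contrasted the antibodies, ZBP1 over ZNA. Here all 27 names were lower in the ZBP1 library under each of the 3 scalings, against 90.9% of all names compared per library total, where the count is near the background, 52.8% per reads outside rRNA and 59.5% under TMM. Per library total the pooled log2 ratio was -1.54 (-1.57 to -1.51), a 2.90-fold lower value, and per reads outside rRNA it was -0.52 (-0.55 to -0.49), a 1.44-fold lower value (1.41 to 1.47). The median over all 680 names compared per reads outside rRNA was -0.05, against -0.55 for the members.

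At least 2-fold lower values were found for 27 of 27 members per library total, against 50.1% of 682 names, and for 3 of 27 per reads outside rRNA, against 9.41% of 680 names. The latter share is close to the background, and the 3 are L1_Mur1, L1_Mur2 and L1_Mur3. Under TMM the count was 6 of 27, against 10.9% of 682 names. No member was at least 2-fold higher, against 0.293% of names on CPM and 9.12% on RPM. The exact interval of the ratio per reads outside rRNA lay wholly below 1 for 25 of the 27 members, against 18.7% of all names compared, and wholly above 1 for 0, against 18.8%. The exceptions are Lx2A1 and L1_Mus3, whose intervals include 1. The median member had 2074 reads over these 2 libraries together and the median of all names compared was 112.5, so the members' intervals are the narrower ones. The part of read depth in the count of 25 was not tested.

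**Figure D2:**
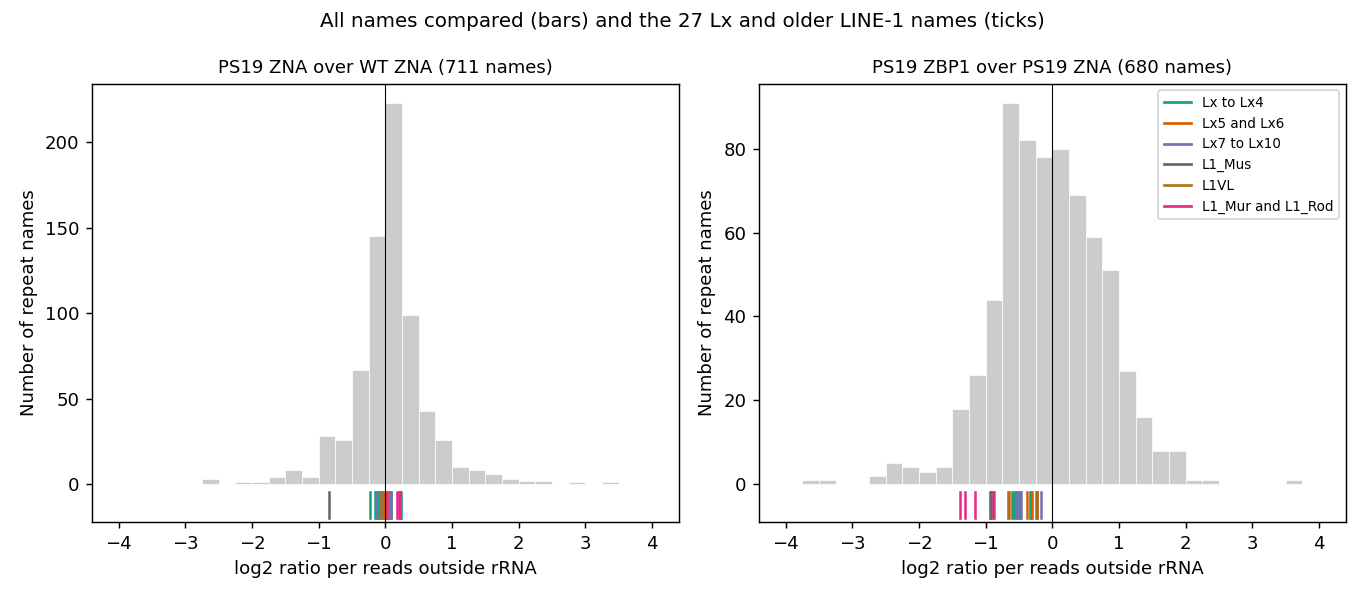
Number of repeat names (bars, 0.25-wide bins) by log2 ratio per reads outside rRNA for PS19 ZNA over WT ZNA (711 names) and PS19 ZBP1 over PS19 ZNA (680 names), with 1 tick below the axis for each of the 27 members, coloured by name group. On the left the ticks lie around 0 apart from L1_Mus3 at -0.85, and on the right all of them lie below 0, from -1.38 to -0.17; per library total all members lie above 0 on the left.

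The members did not behave as 1 block in the ZBP1 comparison. The L1_Mur and L1_Rod names had a pooled log2 ratio of -1.17 (-1.28 to -1.07) per reads outside rRNA, a 2.26-fold lower value in the ZBP1 library. The other 23 names had -0.45 (-0.48 to -0.42). The difference between these 2 sets was -0.72 (-0.84 to -0.61) and does not depend on the scaling. L1_Mur and L1_Rod made up 7.70% of the group's reads in the PS19 ZBP1 library (Wilson interval 7.19 to 8.24%), 12.1% in PS19 ZNA (11.8 to 12.4%) and 10.97% in WT ZNA (10.6 to 11.3%). The ZBP1 library is thus low for them against both ZNA libraries. Per reads outside rRNA the 3 L1_Mur names alone had a pooled log2 ratio of -1.27 (-1.40 to -1.14), whereas L1_Rod was at -0.90. The lowest of the other 23 names was at -0.94, so L1_Rod lay within their range.

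Counts are listed for PS19 ZBP1 first, then PS19 ZNA, then WT ZNA. L1_Mur3 had 252, 2599 and 1062 reads, or 3384, 8422 and 7305 RPM. L1_Mur2 had 205, 1899 and 880 reads, or 2753, 6153 and 6053 RPM. L1_Mur1 had 90, 972 and 406 reads, or 1208, 3149.6 and 2793 RPM. For each of these names the ZBP1 value is under the lower of the 2 ZNA values by a wide margin, and no exact Poisson interval of ZBP1 reaches one of ZNA. Against PS19 ZNA, the ZBP1 values were 2.61-fold lower for L1_Mur1 (exact interval 2.10 to 3.27), 2.49-fold lower for L1_Mur3 (2.19 to 2.84) and 2.24-fold lower for L1_Mur2 (1.93 to 2.595). Per library total these 3 names were also the lowest members, 5.27-fold (4.25 to 6.62), 5.04-fold (4.42 to 5.75) and 4.52-fold (3.91 to 5.25) lower, in the same order. L1_Mur1 ranked 25 from the bottom among the 680 names by log2 ratio per reads outside rRNA, L1_Mur3 34 and L1_Mur2 48. Names outside the group thus lay lower still, and the lowest L1Md name had a log2 ratio of -1.46, against -1.38 for L1_Mur1. On this scale 8 of the 25 L1Md names were at least 2-fold lower, against 9.41% of the 680 names. L1_Rod had 216, 1666 and 672 reads, or 2900.3, 5398 and 4623 RPM. Per reads outside rRNA it was 1.86-fold lower in ZBP1 than in PS19 ZNA (1.61 to 2.16).

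The same 4 names leaned the other way between the ZNA libraries. Per reads outside rRNA their pooled log2 ratio of PS19 over WT was 0.15 (0.09 to 0.22), a 1.11-fold higher value, and 0.16 (0.10 to 0.23) above that of the other 23 members. All 4 lay above 0 on this scale, as did 59.6% of all 711 names compared, whose median was 0.08. The pooled log2 ratio of the L1Md names was 0.17, so the lean is not particular to the 4 names. Its size is small: L1_Rod was 1.17-fold higher (1.07 to 1.28), L1_Mur3 1.15-fold (1.07 to 1.24), L1_Mur1 1.13-fold (1.003 to 1.27) and L1_Mur2 1.02-fold (0.938 to 1.10). Both comparisons share the PS19 ZNA library, so these values are not independent of the lower ZBP1 ratio. Set against WT ZNA instead, the 4 names were 2.03-fold lower in ZBP1 (1.87 to 2.20) per reads outside rRNA and 1.74-fold lower (1.61 to 1.89) per library total, where genotype and antibody both differ.

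**Figure D3:**
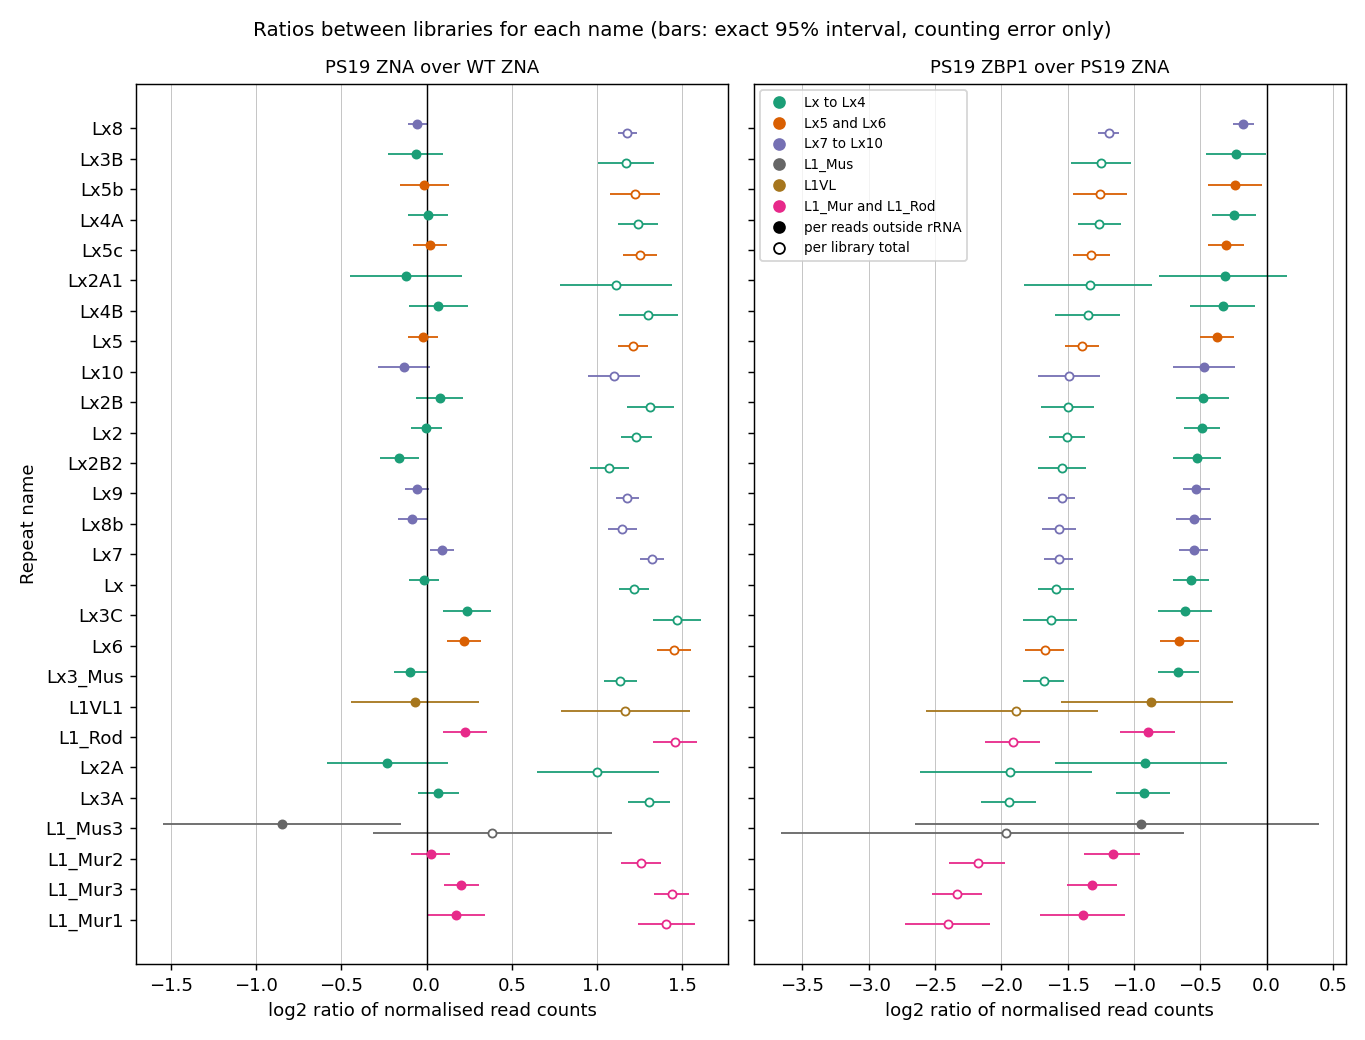
Log2 ratio of each of the 27 names, computed without a pseudocount, for PS19 ZNA over WT ZNA and PS19 ZBP1 over PS19 ZNA, per reads outside rRNA (filled) and per library total (open), coloured by name group. Bars are exact intervals of counting error; L1_Mur1, L1_Mur2 and L1_Mur3 lie lowest and Lx8 highest on the right under both scalings, and on the left the filled points scatter around 0 while all open points lie above 0.

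Names from Lx to Lx4 held about the same share of the group's reads in each library, 32.5% in PS19 ZBP1, 32.6% in PS19 ZNA and 33.0% in WT ZNA. Their pooled log2 ratio per reads outside rRNA was -0.53 (-0.58 to -0.47) for ZBP1 over PS19 ZNA and -0.01 (-0.04 to 0.03) for PS19 over WT ZNA. Lx, the name without a number, had 510, 3139 and 1495 reads, or 6848, 10171 and 10284 RPM. Lx2 had 519, 3013 and 1422 reads, or 6969, 9763 and 9782 RPM. In both names the ZNA libraries agree to within their counting intervals and the ZBP1 library is lower. Lx2B had 241, 1396 and 623 reads, or 3236, 4523 and 4286 RPM. Lx2B2 had 298, 1776 and 935 reads, or 4001, 5755 and 6432 RPM. After Lx2A, Lx2B2 had the lowest PS19 over WT ZNA log2 ratio of the members with a mean of at least 10 CPM, 1.12-fold lower per reads outside rRNA (1.03 to 1.21) although 2.11-fold higher per library total (1.94 to 2.28). Lx2A had 24, 188 and 104 reads and Lx2A1 had 45, 232 and 119 reads. The PS19 over WT intervals per reads outside rRNA of this last pair include 1, at 0.852-fold (0.667 to 1.09) and 0.918-fold (0.733 to 1.15), and per library total the 2 names were 2.003-fold (1.57 to 2.57) and 2.16-fold (1.73 to 2.72) higher.

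The Lx3 names differed among themselves in the ZBP1 comparison. Lx3A had 221, 1742 and 782 reads, or 2967, 5645 and 5379 RPM. Lx3B had 194, 942 and 464 reads, or 2605, 3052 and 3192 RPM. Lx3A was thus 1.90-fold lower in ZBP1 than in PS19 ZNA (1.65 to 2.20) and Lx3B 1.17-fold lower (1.003 to 1.37), with intervals that do not overlap. Lx3C had 233, 1476 and 590 reads, or 3129, 4783 and 4059 RPM. Lx3_Mus had 395, 2594 and 1307 reads, or 5304, 8405 and 8991 RPM. Between them lay the ratios of Lx3C, 1.53-fold lower (1.33 to 1.76), and Lx3_Mus, 1.58-fold lower (1.42 to 1.77). Lx3C also had the highest PS19 over WT ZNA ratio of all members, 2.77-fold on CPM (2.52 to 3.06) and 1.18-fold on RPM (1.07 to 1.30). Lx4A had 373, 1830 and 858 reads, or 5008, 5929.8 and 5902 RPM. Lx4B had 166, 866 and 389 reads, or 2229, 2806 and 2676 RPM. Both Lx4 names were among those least lowered in ZBP1, 1.18-fold (1.06 to 1.33) and 1.26-fold (1.07 to 1.495) below PS19 ZNA.

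The Lx5 and Lx6 names had a pooled log2 ratio per reads outside rRNA of -0.41 (-0.49 to -0.34) for ZBP1 over PS19 ZNA and 0.06 (0.01 to 0.11) for PS19 over WT ZNA. Lx5 had 610, 3277 and 1567 reads, or 8191, 10618 and 10779 RPM. Lx5c had 511, 2615 and 1216 reads, or 6861, 8473 and 8365 RPM, and Lx5b had 244, 1191 and 566 reads, or 3276, 3859 and 3893 RPM. These 3 names had PS19 over WT ZNA ratios of 0.985-fold to 1.01-fold per reads outside rRNA. Lx6 stood apart from them, with 443, 2894 and 1172 reads, or 5948, 9377 and 8062 RPM. It was 1.16-fold higher in PS19 than in WT ZNA (1.09 to 1.25) per reads outside rRNA and 2.74-fold higher (2.56 to 2.93) per library total. Per reads outside rRNA it was 1.58-fold lower in ZBP1 than in PS19 ZNA (1.43 to 1.75). Lx5b, in contrast, was 1.18-fold lower there (1.03 to 1.36).

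The Lx7 to Lx10 names carried the largest share of the group's reads, 41.3% in PS19 ZBP1, 38.0% in PS19 ZNA and 39.2% in WT ZNA. Lx8 had 1632, 7631 and 3734 reads, or 21914, 24727 and 25686 RPM. It had the smallest ZBP1 deficit of all members, 1.13-fold (1.07 to 1.19) on RPM and 2.28-fold (2.16 to 2.41) on CPM. Its share of the group's reads was 16.5% in ZBP1 (Wilson interval 15.8 to 17.2%), 12.95% in PS19 ZNA (12.7 to 13.2%) and 13.6% in WT ZNA (13.2 to 13.97%). Lx8b had 561, 3401 and 1698 reads, or 7533, 11020.3 and 11680.4 RPM, and was 1.46-fold lower in ZBP1 than in PS19 ZNA (1.34 to 1.60). Lx8 and Lx8b therefore differ, despite their shared name, beyond their counting intervals. Lx9 had 882, 5275 and 2583 reads, or 11843, 17093 and 17768 RPM. Lx7 had 833, 5056 and 2238 reads, or 11185, 16383 and 15395 RPM, and Lx10 had 180, 1033 and 534 reads, or 2417, 3347 and 3673 RPM. These latter 3 were 1.39-fold to 1.465-fold lower in ZBP1 than in PS19 ZNA per reads outside rRNA. Between the ZNA libraries Lx7 was 1.06-fold higher in PS19 (1.01 to 1.12) per reads outside rRNA, and the intervals of Lx8, Lx8b, Lx9 and Lx10 include 1.

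The rarest names allow little. L1VL1 had 24, 182 and 90 reads, or 322, 589.7 and 619 RPM, and was 1.83-fold lower in ZBP1 than in PS19 ZNA (1.19 to 2.93). L1_Mus3 had 5, 40 and 34 reads, or 67.1, 129.6 and 234 RPM. It was the only member not at least 1.5-fold higher in PS19 than in WT ZNA per library total, at 1.30-fold (0.805 to 2.12), and was 1.80-fold lower per reads outside rRNA (1.11 to 2.92). Per reads outside rRNA its ZBP1 over PS19 ZNA ratio has an interval from 6.27-fold lower to 1.31-fold higher, so no difference was detectable on this scale. Per library total it was 3.91-fold lower (1.54 to 12.7), so the reading of this name depends on the scaling.

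Set beside other LINE-1 names, the group lay between the 25 L1Md names and the 89 L1M and HAL1 names in the ZBP1 comparison. The pooled log2 ratio of ZBP1 over PS19 ZNA per reads outside rRNA was -0.87 (-0.90 to -0.83) for L1Md, -0.52 for the group and -0.38 (-0.43 to -0.32) for L1M and HAL1. The group's value was 0.35 (0.30 to 0.39) above that of L1Md and 0.15 below that of L1M and HAL1 (difference -0.15, -0.21 to -0.08), and these differences do not depend on the scaling. As a difference of medians of names, the distance from L1M and HAL1 was larger, at -0.25, and pooled without Lx8, the most-read member, it was -0.21 (-0.27 to -0.14). Without L1_Mur and L1_Rod, the remaining members were 0.42 above L1Md (0.37 to 0.46) and their difference from L1M and HAL1 was -0.08 (-0.14 to -0.01). Lx5 and Lx6, at -0.04 (-0.13 to 0.05), and Lx7 to Lx10, at -0.03 (-0.10 to 0.04), had differences from L1M and HAL1 whose intervals include 0. In Lx7 to Lx10 this rests on Lx8, whose log2 ratio was -0.17 while the other 4 names lay between -0.55 and -0.47. Without Lx8 the difference was -0.16 (-0.24 to -0.08), and as a difference of medians per reads outside rRNA with Lx8 it was -0.21. L1_Mur and L1_Rod, on the other side, had a pooled ratio lower than that of L1Md, with a difference of -0.31 (-0.42 to -0.19). For the L1_Mur names alone the difference was -0.40 (-0.54 to -0.27), while L1_Rod, at -0.90, was near the pooled L1Md value. The lowest single L1Md name nevertheless reached -1.46 per reads outside rRNA.

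In the PS19 over WT ZNA comparison the groups lay closer together. The group's pooled log2 ratio differed from that of L1Md by -0.16 (-0.19 to -0.13) and from that of L1M and HAL1 by -0.05 (-0.10 to -0.01). Without Lx8 the latter was -0.04 with an interval that includes 0 (-0.09 to 0.00074), and the difference of medians was -0.02 per library total. Per reads outside rRNA, 24 of the 25 L1Md names were higher in PS19, against 12 of the 27 members and 59.6% of all 711 names compared. L1_Mur and L1_Rod were the name group closest to L1Md, with a difference of -0.02 (-0.08 to 0.05). Lx7 to Lx10 differed from L1Md by -0.20 (-0.24 to -0.17).

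**Figure D4:**
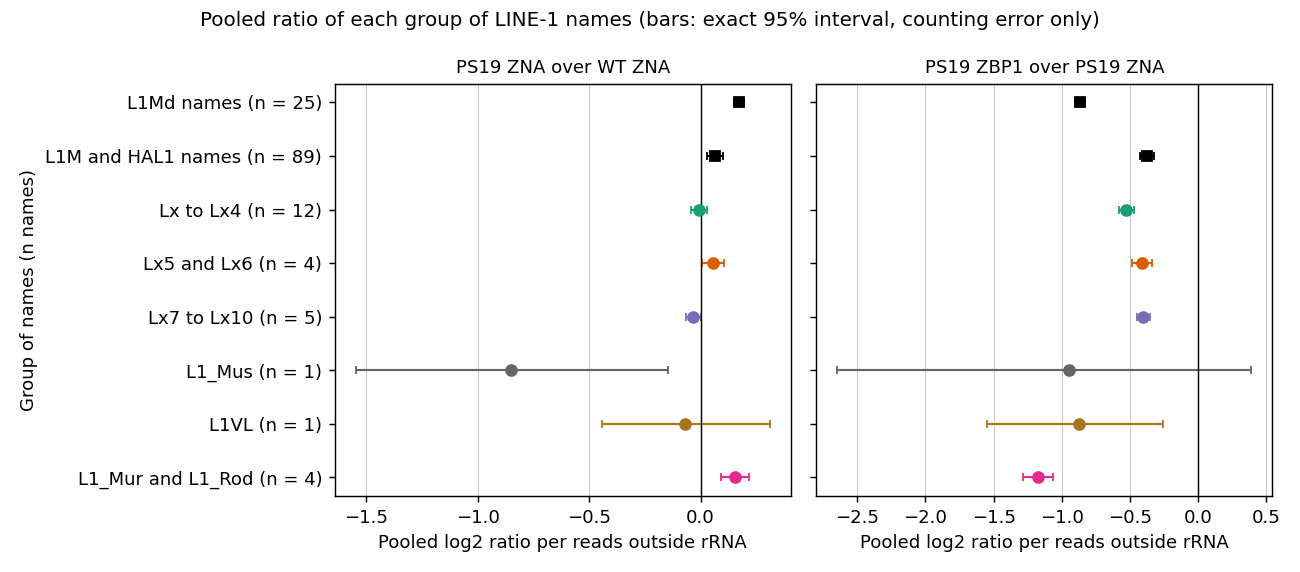
Pooled log2 ratio per reads outside rRNA of each name group (circles) and of the L1Md and the L1M and HAL1 names (squares), for PS19 ZNA over WT ZNA and PS19 ZBP1 over PS19 ZNA, with exact intervals of counting error and the number of names pooled. On the right L1_Mur and L1_Rod lie at -1.17, below L1Md at -0.87, while the 3 Lx groups lie at -0.53 to -0.40; on the left the groups with more than 1 name lie between -0.03 and 0.17, values that are all above 0 per library total.

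Against the WT ZNA library, the PS19 ZBP1 library was lower for all 27 names under each scaling, against 38.5% of 574 names compared on CPM, 46.7% of 572 on RPM and 55.1% of 574 under TMM. The members' pooled log2 ratios were -0.29 (-0.33 to -0.26) on CPM and -0.51 (-0.54 to -0.48) on RPM. On CPM some members were practically level: the log2 ratio was -0.01 for Lx8 and -0.02 for Lx4A, with exact intervals that include 0. Both genotype and antibody differ in this pair and cannot be told apart. Per reads outside rRNA the value is close to the -0.52 found against PS19 ZNA; both ratios have the ZBP1 library as their numerator.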

How the data were processed

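RNA immunoprecipitation libraries of mouse hippocampus (3 libraries, 1 per group, grouped by sample title) were analysed from whole-number read counts per repeat name, deposited by the authors without normalization. Per the submitters' processing notes, Trim Galore 0.6.5, STAR 2.5.3a, featureCounts 2.0.4 and build mm39 were used. The repeat annotation, the strand setting and the handling of multi-mapping reads are not given in the sources used here. Such choices move reads between related subfamilies, so single names are less certain than pooled groups. A name pools all its genomic copies and has no position.

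Per name, a pseudocount of 1 was added to the CPM or RPM before taking log2 ratios, for names whose 2 libraries averaged at least 1 CPM and summed to at least 20 reads. Fold values, pooled ratios and plotted ratios of names use counts without pseudocount, with exact conditional (Clopper-Pearson) 95% intervals. Differences of pooled ratios have normal intervals on the log scale. Intervals cover counting error only, because 1 library per group gives no replicate error. They treat reads as independent, whereas reads without molecular identifiers are not independent molecules, so the intervals can be too narrow. A quasi-likelihood fit in edgeR needs replicates, which 1 library per group does not give. edgeR gave TMM factors over all names with a read. Members averaging at least 10 CPM in the 3 libraries (26 of 27) were to be named with their counts. L1_Mus3, below that limit, was named after its values were seen. In each comparison the 3 highest and 3 lowest members have intervals. The members, lists and scalings were chosen with earlier results of these data known. Ratios and intervals were tested on simulated independent Poisson counts, which checks the computation but cannot show how the intervals fare where reads are not independent. The software was R 4.3.3 with edgeR 4.0.16, and Python 3.11.15 with scipy 1.17.1, pandas 2.3.3, numpy 2.4.6 and matplotlib 3.10.9.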

Additional observations from a re-analysis of the deposited data

How the results depend on the processing

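For PS19 over WT ZNA, the members at least 2-fold higher went from 25 to 0 per reads outside rRNA and to 0 under TMM, their median log2 ratio from 1.22 to -0.013 and -0.0044, which changed its sign, and the pooled log2 ratio from 1.25 to 0.011 and 0.020. For PS19 ZBP1 over PS19 ZNA, the members at least 2-fold lower numbered 3 and 6 in place of 27, the median went from -1.56 to -0.55 and -0.70, and the pooled ratio from -1.54 to -0.52 and -0.68. For PS19 ZBP1 over WT ZNA, a comparison added after seeing the data, the pooled ratio went from -0.29 to -0.51 and -0.66. For the values that moved with the scaling, the cause was not tested. At a 4-fold limit per library total, 0 of the 27 members were higher in PS19 ZNA and 3 of 27 lower in PS19 ZBP1. The share of all names passing this limit was not computed, so these counts cannot be set against a background. Without Lx8, the most-read member, the pooled ratios against PS19 ZNA and WT ZNA were -1.60 and -0.34, and the difference from L1Md was 0.29. As a difference of medians per library total, that from L1M and HAL1 was -0.25. For Lx7 to Lx10, the difference from L1M and HAL1 went from -0.03 to -0.16 without Lx8. Between medians per reads outside rRNA it was -0.21. These Lx7 to Lx10 settings were added after seeing the data. Shares of the reads outside rRNA of 13.3%, 19.1% and 18.9% (PS19 ZBP1, PS19 ZNA, WT ZNA) became 0.695%, 2.02% and 0.851% of the library total and 43.97%, 40.5% and 42.7% of all L1, Lx and HAL1 names. A pseudocount of 0.1 or 5, the absence of a filter, a minimum mean of 10 CPM and a 1.5-fold limit left the counts within 1.5 times and the medians within counting error. No paired analysis was possible because each group has 1 library, and for the same reason no library could be left out. The ZBP1 library is the shallowest, and 1 of its reads equals 0.702 CPM.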
